A study of Mus musculus with 3 samples.

Results

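RNA polymerase II (RNAP2) peaks at the starts of long noncoding RNA genes numbered 246, of 20479 RNAP2 peaks called in mouse distal forelimb cells. A peak was counted here if it was narrower than 4000 bp, lay within 1 kb of an annotated transcript start of a long noncoding gene, and lay more than 1 kb from every protein-coding transcript start (mm9, GENCODE vM1). Of the 20479 peaks, 20075 were narrower than 4000 bp, and among these 8672 lay at a protein-coding start and 10539 at no annotated start. The 246 peaks were nearest to 230 genes, 131 of type lincRNA (an intergenic long noncoding RNA) and 99 of type processed_transcript. The annotation holds no gene of type antisense, since antisense is a transcript type there, and 55 of the 246 nearest transcripts were of that type.

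The study asked where active regulatory sites lie in developing limbs, and mapped RNAP2 and Med12 by chromatin immunoprecipitation and sequencing (ChIP-seq) at E12.5, a day of embryonic development. Distal forelimbs of normally gestated mouse embryos, for which the labels give no strain, genotype or number of embryos, were dissociated with collagenase and fixed. There was 1 RNAP2 library, 1 Med12 library and 1 input library, the input without antibody and not analysed here for peaks. The sample labels give E12.5 while the series' design text names an earlier day. No replicate was available, so no test between libraries was possible, and the intervals given below are 95% intervals of shares that cover counting error alone. The peak lists give no read counts, and the depth behind a single peak is unknown from them.

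Long noncoding RNAs are transcribed by RNAP2 from promoters of their own, and are often capped, spliced and polyadenylated without encoding a protein. Some act where they are made, as in imprinted clusters, while others are hosts whose introns or exons are cut into small nucleolar RNAs (snoRNAs) or microRNAs. Mediator is the complex that links transcription factors bound at enhancers with RNAP2 at promoters, and Med12 belongs to its kinase module. In limb buds, long noncoding transcripts start within Hox clusters and in the flanks of many developmental regulators.

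The tissue label was checked with marker genes of the cell types that a limb sample can hold. RNAP2 lay at the starts of 6 of 6 distal limb mesenchyme genes, Prrx1, Hoxa13, Hoxd13, Msx1, Lhx9 and Sall1, with scores from 1095 to 3100. It was called at 0 of 4 ectoderm genes, 1 of 3 muscle genes (Pax3), 1 of 5 blood and endothelium genes (Tal1), 0 of 4 neuronal genes and 0 of 2 liver genes. In a sample of mixed cells, a peak found in few cells and a weaker peak found in many cannot be told apart.

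The noncoding label was checked against RefSeq, in which 150 of the 230 genes could be matched by name. RefSeq called 120 of them lncRNA, 2 antisense_RNA, 1 misc_RNA, 9 transcribed_pseudogene, 1 pseudogene and 17 protein_coding. The label was thus not shared for 27 genes, Ttc28, Oaz2 and Spcs3 among them, and 80 genes had no match. A further limit was that 13 of the 246 peaks lay by the start of a noncoding isoform of a protein-coding gene.

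Sequences at 10 of these starts are shown, so that the letters behind terms such as GC box or TATA box can be seen. They comprise strong snoRNA hosts, imprinted RNAs, the nuclear RNA Neat1, the high-scoring 2610035D17Rik, Haglr of the HoxD cluster, and RNAs beside Hand2 and Dlx1. The RNAP2 peak of the RNA beside Hand2 (Hdnr) lay downstream of the start shown and did not cover it. Each run is from mm9, 5′ to 3′ on the strand of the RNA, from 100 bases before the most upstream start of the gene within 1 kb of the peak to 50 bases from it. Capitals mark matches on either strand to the TATA box (searched as TATAAA), the CCAAT box (as CCAAT), the GC box (as GGGCGG), the CRE (as TGACGTCA), the E box (as CACGTG), the ETS motif (as CCGGAA), the NRF1 motif (as GCGCATGC), the YY1 motif (as AAGATGGC) or the AP-1 motif (as TGANTCA), and neighbouring matches can share letters. The shares of CpG-rich windows and motifs given further on were counted in longer windows, of 300 bases, around the start nearest the peak centre, which is another start for some of these genes, H19 among them.
Snhg5, chr9:88417672-88417821, minus strand: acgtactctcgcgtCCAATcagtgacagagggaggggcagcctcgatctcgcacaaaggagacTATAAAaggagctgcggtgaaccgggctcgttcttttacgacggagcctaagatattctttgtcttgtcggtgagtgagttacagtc
Snhg12, chr4:131864493-131864642, plus strand: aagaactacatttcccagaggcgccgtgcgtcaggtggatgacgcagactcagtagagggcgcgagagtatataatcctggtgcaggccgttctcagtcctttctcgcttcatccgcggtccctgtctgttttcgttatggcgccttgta
H19, chr7:149763999-149764148, minus strand: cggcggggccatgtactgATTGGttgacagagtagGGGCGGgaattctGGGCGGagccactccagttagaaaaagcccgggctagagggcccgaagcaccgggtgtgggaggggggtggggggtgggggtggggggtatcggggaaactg
Meg3, chr12:110779111-110779260, plus strand: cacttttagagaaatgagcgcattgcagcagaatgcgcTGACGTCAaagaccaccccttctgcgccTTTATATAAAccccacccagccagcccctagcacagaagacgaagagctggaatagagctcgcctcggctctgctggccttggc
Airn, chr17:12934077-12934226, plus strand: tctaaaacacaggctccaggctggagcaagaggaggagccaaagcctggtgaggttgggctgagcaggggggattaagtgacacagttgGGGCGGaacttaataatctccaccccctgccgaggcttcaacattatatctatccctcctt
Neat1, chr19:5845429-5845578, minus strand: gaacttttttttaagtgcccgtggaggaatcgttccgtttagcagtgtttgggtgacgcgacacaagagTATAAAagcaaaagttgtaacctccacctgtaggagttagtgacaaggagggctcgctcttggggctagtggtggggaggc
2610035D17Rik, chr11:113063103-113063252, minus strand: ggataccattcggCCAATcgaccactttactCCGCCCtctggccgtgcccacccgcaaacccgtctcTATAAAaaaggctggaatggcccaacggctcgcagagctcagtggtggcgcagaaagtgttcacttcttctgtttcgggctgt
6720416L17Rik (Haglr), chr2:74588514-74588663, minus strand: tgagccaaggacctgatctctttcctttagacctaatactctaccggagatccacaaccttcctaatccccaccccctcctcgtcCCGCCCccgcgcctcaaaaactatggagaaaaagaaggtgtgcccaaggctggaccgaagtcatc
5033428I22Rik (Hdnr), chr8:59810815-59810964, plus strand: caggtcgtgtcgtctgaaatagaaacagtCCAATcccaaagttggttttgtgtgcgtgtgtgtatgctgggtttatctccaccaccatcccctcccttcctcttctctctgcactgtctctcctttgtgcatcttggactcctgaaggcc
Dlx1as, chr2:71375899-71376048, minus strand: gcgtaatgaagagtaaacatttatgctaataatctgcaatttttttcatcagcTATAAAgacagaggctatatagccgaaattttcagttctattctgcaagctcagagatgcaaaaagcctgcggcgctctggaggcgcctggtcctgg

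RNAP2 scores at noncoding starts covered nearly the whole range of the list. The score is 10 times the negative log10 of the peak caller's p-value, and it was compared only within a list. Whether the input library was the control for this p-value is not stated in the sources used here. The 246 peaks had a median score of 142.6, with quartiles of 73.1 and 342.9 and extremes of 40.8 and 3100. Peaks at protein-coding starts had a median of 313.6 and peaks at no annotated start a median of 75.3, so noncoding starts lay between both groups. Widths had a median of 1394 bp (quartiles 1144 and 1801 bp), against 1443 bp at protein-coding starts and 1226 bp away from starts.

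Hosts of snoRNAs were prominent among the highest scores. The value 3100 was reached or passed by 329 peaks of the list and by 3 of the 246, so these cannot be ranked among themselves. One of the 3 was at 2410006H16Rik, which carries Snord49a, Snord49b and Snord65 in its span. The other two were at separate starts of 1 gene, D230017M19Rik, and overlapped Med12 peaks with scores of 126 and 156. Gm13507, antisense within an intron of Nr6a1, followed with a score of 3006. Snhg5, which hosts a SNORD50 copy, had a score of 2796. Next came 1110038B12Rik, also a snoRNA host, with 2163, and 5430416N02Rik with 2114. Snhg12, which hosts Snora16a, Snora44, Snora61 and Snord99, had a score of 1919.8. The next were 2610035D17Rik at 1761 and Gm10433 at 1513. Of these 10 peaks, 4 were thus at genes that carry snoRNAs. The start of 2610035D17Rik lay 363934 bp from the nearest protein-coding start, that of Slc39a11.

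Over all 246 peaks, 15 lay at 14 genes with an annotated snoRNA in their span, and their median score was 559.8. snoRNAs guide the chemical modification of ribosomal and other RNAs, and their hosts are widely transcribed in growing cells. Other hosts with a peak were Gm11974 (Snhg15) at 1056, 2410004N09Rik (Epb41l4aos) at 803, 2700023E23Rik (Dancr) at 696, 2700038G22Rik at 559.8, 9430008C03Rik (Snhg17) at 544, Snhg4 at 482 and Snhg7 at 435. Only 1 of the 15 peaks, that of Snhg15, overlapped a Med12 peak, whose score was 40.5. That is 6.67%, against 22.5% of the other 231 peaks and a background of 21.3% over all RNAP2 peaks narrower than 4000 bp. The difference of -15.8 points had an interval of -23.8 to 7.82, which included 0. Snhg5, 9330159M07Rik and 9430037G07Rik all carry SNORD50 copies, and had scores of 2796, 159 and 141. How alike these loci are was not measured. Per the study's methods, the processed tracks held only uniquely mapped reads. Reads that fit several copies could thus be lost, so these scores are uncertain.

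Hosts of microRNAs had lower scores than hosts of snoRNAs, with 15 peaks at 12 genes and a median of 202.9. That was above the median of 142.6 over all 246 peaks. Mir17hg, the primary transcript of the miR-17-92 cluster, had a peak with a score of 113 over its start. 2210403K04Rik (Mir22hg), the host of miR-22, had a score of 109.9, and neither of these overlapped a Med12 peak. Dleu2, whose intron carries the miR-15a and miR-16-1 genes, had 3 peaks with scores of 689, 470 and 149, of which the highest overlapped Med12. C130071C03Rik, which hosts miR-9-2, was near the lower end of the list with a score of 50.3. For Mir17hg and H19, 1 mature arm of each microRNA they carry is given from RefSeq (GRCm38.p6), with the seed, bases 2 to 8, in capitals. Other arms are not shown. The sequences show that 2 seeds are each used by a pair of RNAs of the Mir17hg transcript.
mmu-miR-17-5p: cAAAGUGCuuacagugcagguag
mmu-miR-20a-5p: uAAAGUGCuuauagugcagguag
mmu-miR-18a-5p: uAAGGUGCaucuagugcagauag
mmu-miR-19a-3p: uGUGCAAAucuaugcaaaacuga
mmu-miR-19b-3p: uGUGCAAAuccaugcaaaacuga
mmu-miR-92a-3p: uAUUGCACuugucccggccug
mmu-miR-675-5p: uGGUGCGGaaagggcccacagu

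Imprinted noncoding genes, which are transcribed from only the maternal or only the paternal copy, had peaks at 4 of the 6 listed members that the annotation holds. H19, a maternally expressed RNA, had a peak with a score of 1109 that overlapped Med12 (score 47.2). At 3895 bp it was the widest of the 246 peaks, and it spanned the whole annotated gene of 2615 bp. The Med12 peak lay over the 3′ end of H19. It covered neither the most upstream start nor the start nearest the RNAP2 peak centre. Airn, which starts in an intron of Igf2r and runs antisense to it, had a score of 769.9 without Med12. Meg3, a maternally expressed RNA, had a score of 682, and Nespas, antisense in the Gnas locus, had 128, both without Med12. Rian and Mirg, annotated downstream of Meg3, had no peak.

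Of the X inactivation genes, 1 of 4 had a peak. That was Enox (Jpx), an activator of Xist, at a score of 72.3, whereas Xist, Tsix and Ftx had none. Of 10 annotated genes with nuclear or growth roles, 5 had a peak among the 246. Neat1, the RNA scaffold of paraspeckles, had a score of 1053 with Med12 (score 65.7). That Med12 peak lay upstream of the Neat1 start and did not cover it. Epb41l4aos and Dancr are given above, 1700020I14Rik (Oip5os1) had 314.5 and 6720401G13Rik (Firre) had 50.0. Malat1 was left out by width, and Tug1 shared its peak with a protein-coding start. Miat, Pvt1 and Trp53cor1 had no peak.

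**Figure D1:**
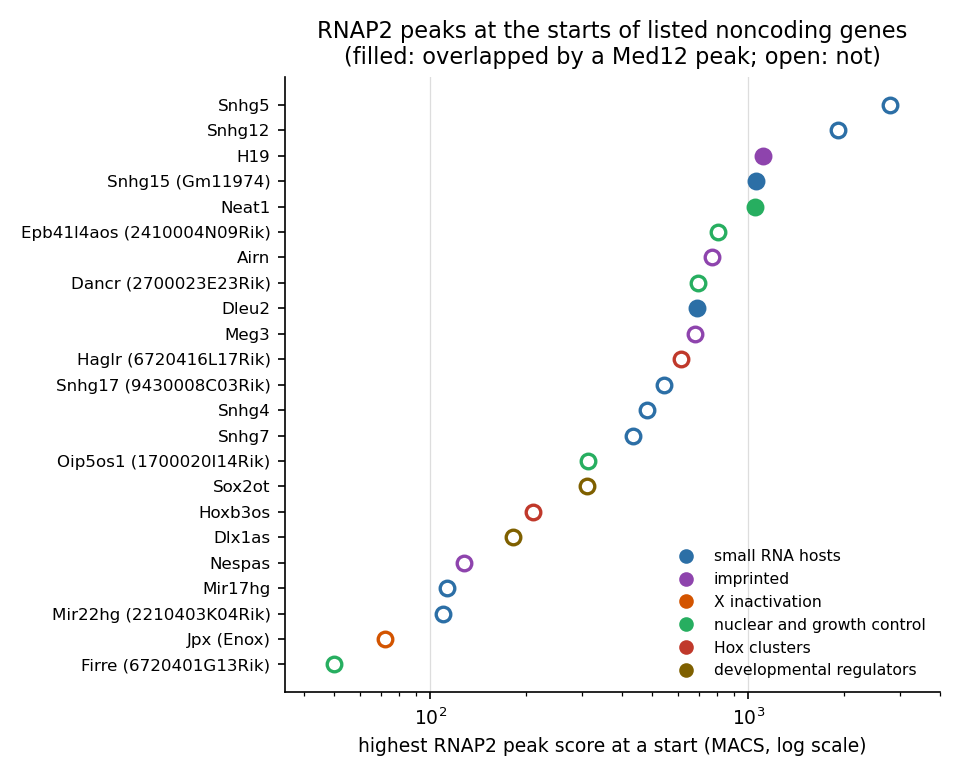
Highest RNAP2 peak score (MACS score, log scale) at the starts of the listed noncoding genes that had a peak among the 246, coloured by list, 1 point for each gene. Filled points overlap a Med12 peak and open points do not. H19, Snhg15, Neat1 and Dleu2 are filled, and scores run from 50.0 at Firre to 2796 at Snhg5. The Med12 peak can lie away from the start, as at H19 and Neat1.

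Noncoding RNAs of the Hox clusters, several of which run antisense to Hox genes, were present in part. Of 9 annotated in this list, 2 had a peak among the 246, 4 shared a peak with a protein-coding start and 3 had none. 6720416L17Rik (Haglr), which starts in the HoxD cluster on the opposite strand to Hoxd3, had a score of 613 over 3608 bp. Hoxb3os, antisense in the HoxB cluster, had a score of 211. Neither overlapped Med12. Another 5 peaks, at genes outside this list, had a Hox gene as the nearest coding gene, with scores from 49.8 to 343, and 0 of these overlapped Med12. The background over all RNAP2 peaks below the width limit was 21.3%. With 7 peaks nearest to Hox genes in all, the absence of Med12 does not set them apart. Of 13 annotated RNAs beside other developmental regulators, 2 had a peak here and 6 shared one with a coding start. These 2 were Sox2ot, in whose span Sox2 lies, at 311, and Dlx1as, antisense to the homeobox gene Dlx1, with 2 peaks at 182 and 155.

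Next to limb regulators, 14 peaks lay at starts whose nearest coding start within 100 kb was that of 1 of 11 listed genes. Listed genes were matched only where the annotation uses the same name. The highest score among the 14 peaks was 1028 at 9430024E24Rik, 78388 bp from Lmx1b, a factor of dorsal limb identity. 4930471M09Rik, 29491 bp from the dorsal ectoderm signal gene Wnt7a, followed with 962. Wnt7a itself had no RNAP2 peak at any of its starts. 5033428I22Rik (Hdnr), 11135 bp from Hand2, a factor of the posterior limb bud, had 679. The Hdnr peak was centred 1737 bp downstream of the start and did not cover it. Gm15222, within an intron of the signal gene Bmp4, had 596. Bmp4 likewise had no RNAP2 peak at any of its protein-coding transcript starts. Whether the peak at Gm15222 stems from this RNA or from Bmp4 was not tested. Med12 overlapped 3 of the 14 peaks, those of 9430024E24Rik (score 98.2), Hdnr (147) and 1 of 2 peaks at Gm20471 (40.9), which is antisense in Prrx1. That is 21.4% (7.57 to 47.6%), against 21.6% of the other 232 peaks. The remaining peaks of the 14, at Dlx1as, the second peak at the same start of Gm20471, and those near Meis1, Zic2, Sox5, Sox4, Bmp4 and Ccnd2, had scores from 56.9 to 182 and no Med12. A peak at Gm16989, with a score of 77.3 and no Med12, was not counted among the 14. Its nearest coding start, 2610 bp away, was that of Tcfap2a, the annotated name of the listed Tfap2a.

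The width limit left out 9 peaks at noncoding starts. The widest inside it were H19 at 3895 bp, Haglr at 3608 bp and Gm17589 at 3588 bp. The narrowest outside it were 2810410L24Rik at 4631 bp, Gm17270 at 4655 bp and Gm16626 at 4774 bp. Dnm3os, a host of miR-199a and miR-214, had a peak of 9452 bp, and the peak over Malat1 was 10423 bp wide. At the lower end of the scores were BB557941 at 40.8, Gm9581 at 41.1 and Gm12504 at 41.3.

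Seen from the annotation, 242 of 3845 long noncoding genes (6.29%) had at least 1 of the 246 peaks at a start. Another 651 genes (16.9%) had RNAP2 only in a peak shared with a protein-coding start, 9 only in a wide peak, and 2943 (76.5%) had none. The share was 10.8% of 1273 lincRNA genes (9.18 to 12.6%) and 4.08% of 2572 processed_transcript genes (3.38 to 4.92%). With any RNAP2 peak counted, it was 23.5% of noncoding genes and 41.8% of 22365 protein-coding genes. These shares describe the rule, which itself used RNAP2.

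The peaks were centred on the start. The peak covered the start itself for 182 of the 246 (74.0%), and lay beside it for 64. At protein-coding starts the same was seen for 93.1%. The peak centre lay a median of 9.5 bp downstream of the start, with quartiles of -257 and 338.5 bp. Peaks reached further downstream than upstream for 132 of the 246 (53.7%). The rule requires a start within 1 kb, so these positions are a description.

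**Figure D2:**
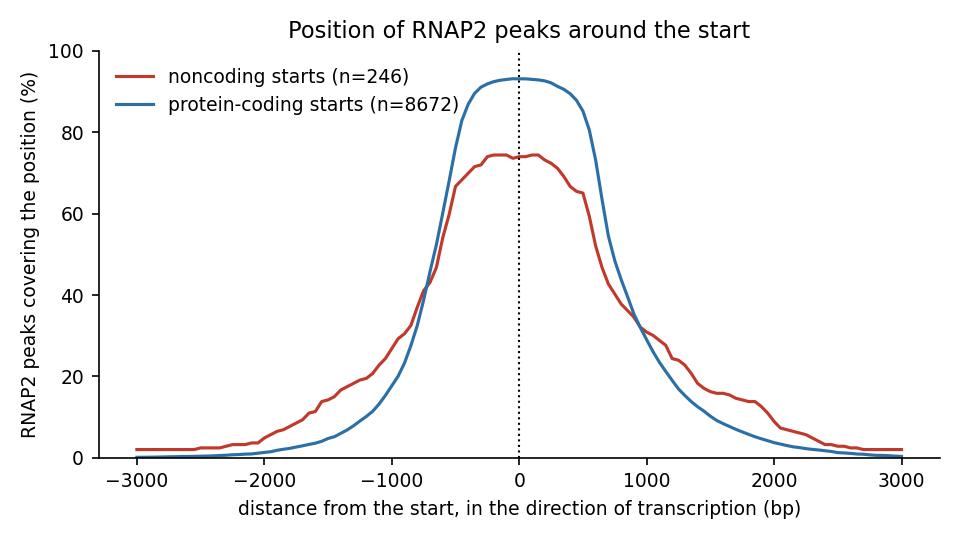
Share of RNAP2 peaks (%) that cover each position from 3000 bp before to 3000 bp after the start, in the direction of transcription, for the 246 noncoding starts and 8672 protein-coding starts. Both curves are highest around the start, at 74.0% and 93.1%, and the curve of noncoding starts is higher at 1000 bp before it, at 26.8% against 17.7%.

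Most of the 246 peaks were centred outside coding genes, after the rule had removed peaks near coding starts. Of 894 RNAP2 peaks at noncoding starts below the width limit, 648 were left out because they lay within 1 kb of a coding start. Of the 246 peak centres, 169 lay outside protein-coding genes, 57 in an intron and 20 in an exon of one. Of the 77 within a coding gene, 68 noncoding transcripts ran antisense to it and 9 in its direction. The median distance from the noncoding start to the nearest coding start was 29470 bp. Relative to that coding start, 99 noncoding starts were on the same strand, 79 were convergent and 68 divergent, and 15 of the divergent ones lay within 5 kb. The nearest coding start had an RNAP2 peak in 122 cases (49.6%) and a Med12 peak in 36 (14.6%). Of all protein-coding genes, 41.8% had an RNAP2 peak, counted over all starts of a gene and not at a single start. The Med12 share over all coding starts was not computed, so whether these neighbours are unusual was not tested.

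Med12 overlapped 53 of the 246 peaks, or 21.5% (16.9 to 27.1%). The background over all 20075 RNAP2 peaks below the width limit was 21.3%, so the share at noncoding starts was that of the whole list. It was 17.1% at protein-coding starts, 4.48 percentage points below noncoding starts (interval of the difference -0.27 to 10.1). It was 25.0% at peaks without an annotated start, and the difference of -3.50 points had an interval of -8.25 to 2.12. Neither interval excluded 0. Med12 was not used in choosing the peaks.

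By RNAP2 score, the 3 groups of peaks ran differently. For scores of 40 to under 100, Med12 overlapped 15.7% of peaks at noncoding starts, 7.05% at coding starts and 14.4% away from starts. For scores of 100 to under 300 the shares were 22.4%, 11.2% and 37.1%. For scores of 300 or more they were 27.8%, 24.2% and 66.7%. Noncoding starts thus exceeded coding starts by 8.68 points (2.41 to 17.7) in the lowest class and by 11.2 points (3.49 to 21.2) in the middle one, and by 3.63 points (-5.48 to 15.0) in the highest. Against peaks away from starts, they differed by 1.35 points (-4.84 to 10.3) in the lowest class. In the middle and highest classes they were lower, with differences of -14.7 points (-22.5 to -4.61) and -38.9 points (-48.4 to -27.2). Peaks with higher scores are also wider, which gives a larger target for overlap. The median widths in the highest class were 1664 bp for noncoding starts, 1702 bp for coding starts and 1788 bp away from starts. The part of width in these shares was not tested. When only peaks with a score of at least 100 in both lists were counted, Med12 overlapped 11.5% of peaks at noncoding starts, against a background of 12.1%, 5.13% at coding starts and 24.6% away from starts.

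**Figure D3:**
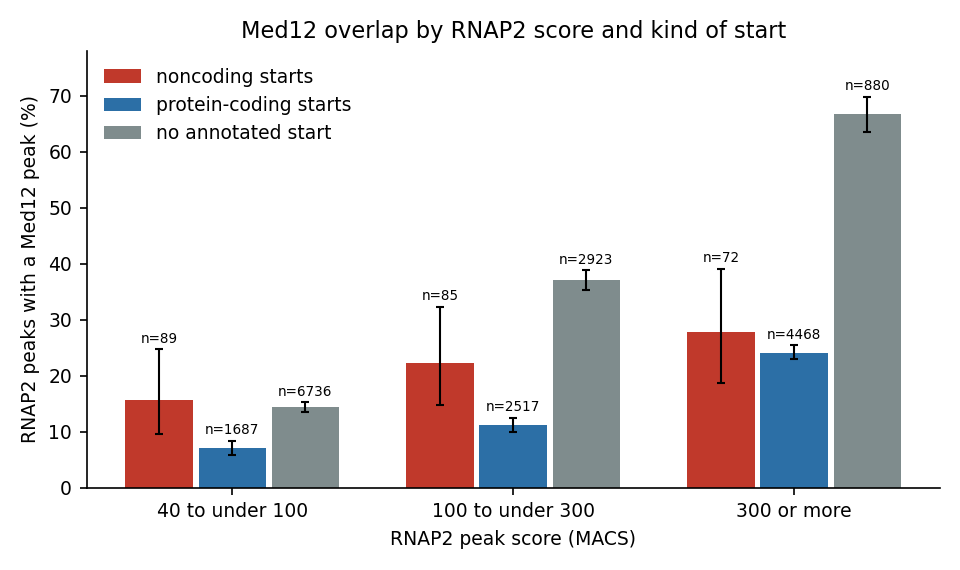
Share of RNAP2 peaks (%) overlapped by a Med12 peak, by RNAP2 score class, for noncoding starts, protein-coding starts and peaks at no annotated start; bars start at 0 and error bars are 95% Wilson intervals (counting error only). In the class of 300 or more the bars are at 27.8%, 24.2% and 66.7%.

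The Med12 peaks that overlapped RNAP2 peaks at noncoding starts had a median score of 79.2 (range 40.5 to 427). The median was 56.8 for the whole Med12 list of 10634 peaks. The highest were at Gm17494 (427), 2900052L18Rik (376), Gm12974 (354), Gm15475 (322) and 4930579M01Rik (243). Gm17494 had a CpG-rich start under its RNAP2 peak, which scored 984. At the other 4 genes the RNAP2 peak lay beside the start and did not cover it. Gm15475 and 4930579M01Rik are antisense within introns of Dysf and Enpp6, and no protein-coding transcript start of either gene had an RNAP2 peak. The peak at Gm15475 lay by the start of a noncoding isoform of Dysf. Over all 246 peaks, Med12 overlapped 20.3% of those that covered the start and 25.0% of those beside it, a difference of -4.67 points (-17.6 to 6.38).

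Among these peaks, Med12 was more frequent at noncoding starts far from coding starts. A start far from every coding start can still lie within a coding gene. Shares over all RNAP2 peaks at the same distances were not computed. Whether the trend is particular to noncoding starts was not tested. Med12 overlapped 12.9% of 31 peaks at starts 1 to under 5 kb from a coding start and 12.2% of 74 at 5 to under 20 kb. It overlapped 26.9% of 108 at 20 to under 100 kb and 36.7% of 30 at 100 kb or more. With 20 kb as the divide, which was chosen after the shares had been seen, 29.0% of far peaks and 12.0% of near peaks overlapped Med12, a difference of 16.95 points (6.76 to 26.4). The median RNAP2 score was 130.5 for the far and 151.1 for the near peaks. Where the nearest coding start had Med12, 36.1% of 36 noncoding starts had it too, against 19.05% of 210, a difference of 17.1 points (2.23 to 34.1). The same Med12 peak can count for both starts. This was so at 2900052L18Rik, 1362 bp from the start of Bahcc1.

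**Figure D4:**
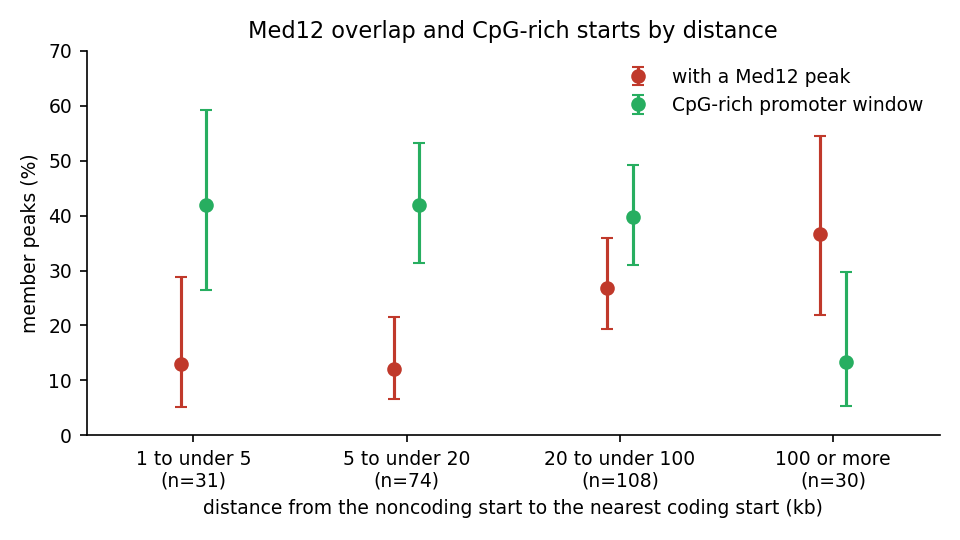
Share of the RNAP2 peaks at noncoding starts (%) that overlap a Med12 peak, and share with a CpG-rich promoter window, by distance to the nearest protein-coding start in kb; points are shares and bars 95% Wilson intervals, and 3 peaks at starts under 1 kb are not drawn. Med12 runs from 12.9% nearest to 36.7% farthest, and CpG-rich windows from 41.9% to 13.3%.

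The promoter windows ranged from CpG-poor to CpG-rich. In mammals, CpG-rich promoters are typical of widely expressed genes. A window of 250 bases before to 50 after the start was called CpG-rich with a GC share of at least 50% and an observed to expected CpG ratio of at least 0.6. This held for 93 of the 246 starts (37.8%, 32.0 to 44.0%), and for 23.6% with the stricter limits of a ratio of 0.75 and a GC share of 55%. It held for 5.63% of 2542 noncoding starts without an RNAP2 peak (4.80 to 6.59%) and 79.2% of 8670 coding starts with one (78.3 to 79.99%). These intervals do not overlap, and noncoding starts with RNAP2 lay between both kinds.

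**Figure D5:**
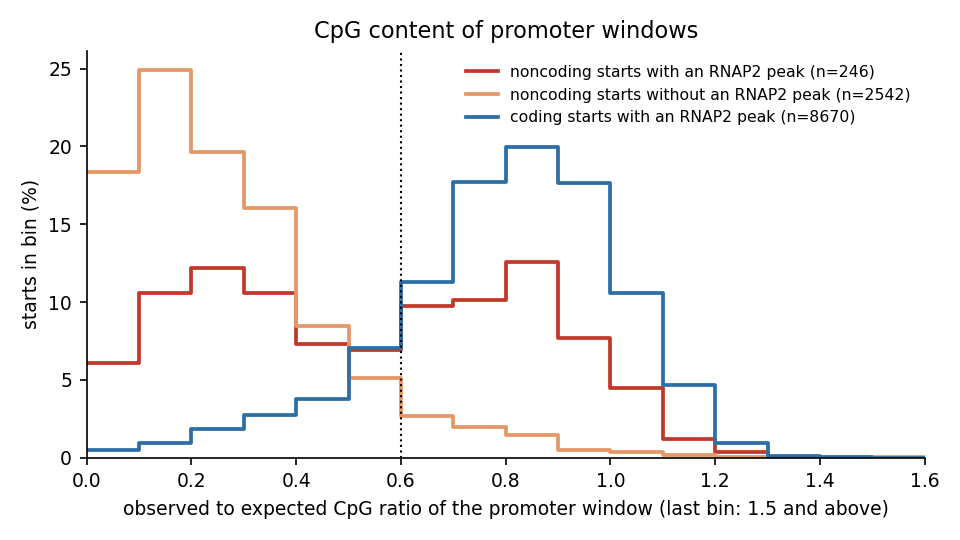
Distribution of the observed to expected CpG ratio in 300-base promoter windows, as percent of starts per bin of 0.1, for 246 noncoding starts with an RNAP2 peak, 2542 without one and 8670 coding starts with one; the dotted line marks 0.6. The medians were 0.54, 0.23 and 0.82, and the starts with RNAP2 spread over both sides of the line.

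CpG-rich noncoding starts had the higher RNAP2 scores, with a median of 251.9 against 112.6 at the other 153. Their share was 23.6%, 36.5% and 56.9% over the 3 score classes. It was 46.8% for lincRNA and 26.2% for processed_transcript genes, a difference of 20.6 points (8.45 to 31.7). It was 47.3% outside and 16.9% within coding genes, a difference of 30.5 points (18.1 to 40.5). Of the 15 peaks of snoRNA hosts, 13 (86.7%) had a CpG-rich start, against 34.6% of the other 231. Starts under the peak were CpG-rich in 44.5% and starts beside it in 18.8%. Med12 overlapped 17.2% of CpG-rich and 24.2% of the other peaks, a difference of -6.98 points whose interval of -16.7 to 3.84 included 0.

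Of the motifs, the GC box and the ETS motif were more frequent with RNAP2 and most frequent at coding starts, as CpG-rich windows were. The GC box occurred in 41.1% of windows with a noncoding start and RNAP2, 11.7% of those without a peak and 69.6% of coding windows. The ETS motif occurred in 17.9%, 7.20% and 30.9%. The CCAAT box was about as frequent everywhere, at 39.8%, 36.5% and 38.3%. TATAAA and AP-1 had their lowest shares in coding windows. TATAAA was found in 12.6% (9.02 to 17.3%), 14.1% (12.8 to 15.5%) and 5.81% (5.34 to 6.33%). AP-1 was found in 6.10% (3.73 to 9.82%), 8.89% (7.85 to 10.1%) and 3.48% (3.12 to 3.89%). For both, the intervals at noncoding starts with and without a peak overlapped. For AP-1, the interval at noncoding starts with RNAP2 also overlapped that of coding windows. The rarer CRE, NRF1, E box and YY1 motifs had the same order as the GC box. The CRE occurred in 2.85%, 0.98% and 4.13%, and the NRF1 motif in 2.85%, 0.94% and 5.93%. The E box occurred in 6.91%, 5.27% and 10.6%, and the YY1 motif in 2.85%, 2.20% and 5.89%. For each of these rarer motifs, the intervals at noncoding starts with and without a peak overlapped. TATAAA that began 35 to 25 bases before the start on the sense strand, a range chosen after the sequences had been seen, occurred at Meg3 and Neat1 of the 246, or 0.81%, against 1.06% of noncoding starts without a peak and 0.70% of coding starts. These shares use the start nearest the peak centre. At the most upstream start, which is the one printed, 2610035D17Rik also held TATAAA in this range. A match describes letters and shows no binding.

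Several peaks at 1 gene differed in score to varying degrees. For 15 genes more than 1 of the 246 peaks was nearest, 31 peaks in all, and these share a gene and are not independent of each other. In 8 genes the peaks were nearest to different starts and in 7 to the same start. With different starts, the scores were 2163 and 66.3 at 1110038B12Rik and 167 and 152 at B230323A14Rik. With 1 start, they were 518 and 41.5 at Gm13179 and 86.4 and 84.3 at Gm11583. Another RNAP2 peak lay within the gene body of 83 of the 246.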

How the data were processed

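RNAP2 and Med12 ChIP-seq peak lists of mouse distal forelimb at E12.5 were used, 1 library per antibody. Per the labels and the study's methods, the authors mapped reads to mm9 with Bowtie and called peaks with MACS 1.4.1 in each library. The deposited score of each peak is the −log10 of the caller's p-value multiplied by 10, and the depth behind it is unknown. The lists start at a score of 40.0. Peak starts are 0-based and were written 1-based.

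Starts were taken from GENCODE vM1, lincRNA and processed_transcript genes counting as noncoding and protein_coding transcripts as coding. A start interval was 1 kb on each side, and overlap meant at least 1 bp. The noncoding start nearest the peak centre stood for a peak. Sequences were read from the mm9 genome, and microRNAs and gene names from RefSeq. Shares have 95% Wilson intervals and differences Newcombe intervals (Python 3.11.15, numpy 2.4.6, scipy 1.17.1, pysam 0.24.0, matplotlib 3.10.9), which cover counting error only. Overlap counting was tested on simulated data and gave the same count as bedtools.

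The members, gene lists, score classes and alternatives were chosen with earlier results of these data known. Genes named were those of the lists (small RNA hosts, imprinted, X inactivation, nuclear and growth control, Hox clusters, developmental regulators), the 10 highest and 3 lowest RNAP2 scores, the 5 highest Med12 scores, peaks at the width limit, those nearest to limb regulators, and up to 10 hosts of small RNAs. Genes with several peaks, the RefSeq coding examples and some further hosts fall outside this rule and were picked with their values in view. Other settings were score minimums of 50 and 100, a start interval of 500 bp, no coding start within 5 kb, starts of every isoform of coding genes, no width limit, an overlap of 50% of the shorter peak, a gap of 500 bp, a stricter CpG threshold and the most upstream start. The input was not analysed here.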

Additional observations from a re-analysis of the deposited data

How the results depend on the processing

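The number of peaks at noncoding starts, their median score and width, the share with Med12, the share of noncoding genes and the share of CpG-rich starts were recomputed under 10 alternative settings, giving 34 values, of which 27 moved little. With a score of at least 100 in both lists, 157 peaks remained, with a median score of 263.7 and a median width of 1605 bp, of which 11.5% overlapped Med12, and 4.11% of noncoding genes had a peak. With no coding start within 5 kb, 5.28% of noncoding genes had a peak. With a CpG ratio of at least 0.75 and a GC share of at least 55%, 23.6% of starts were CpG-rich. No paired analysis was possible because there is a single library for each antibody. The lists hold no read counts, so a missing peak shows only that none was called at this depth, and Med12 peaks of low score, such as those at H19 and Snhg15, are lost with the stricter minimum.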
